A study of Mus musculus with 4 samples.

Results

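The potassium channel subunits comprise 96 of the 24216 rows of the authors' deposited table, chosen by symbol as every gene whose name begins with Kcn, further letters and a number, without Kcnj8. By annotation 92 of them encode proteins, of which 76 belong to families that form the channel pore and 16 to auxiliary families, and 4 are non-coding transcripts that lie antisense to a channel gene (Kcnd3os, Kcnmb4os1, Kcnmb4os2 and Kcnq1ot1). RNA came from dental pulp cells of XLacZ4 mice, in which the transgene makes beta-galactosidase in pericytes and vascular smooth muscle. Teeth were dissociated and cells positive for FDG, a substrate that fluoresces once beta-galactosidase cleaves it, were sorted. The labels give 2 molar pulp libraries and 2 incisor pulp libraries, all of the XLacZ4 strain, and state neither age nor treatment. They do not say that 2 libraries of 1 tissue are from different animals, so q values may reflect technical spread only. The protocol text of all 4 libraries names molars only, and libraries were assigned to incisor by their titles.

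Potassium channels let potassium leave the cell down its gradient and so hold the membrane potential negative. Each channel is built around a pore of several alpha subunits. Voltage-gated (Kv) subunits open on depolarisation, inward rectifiers (Kir) and tandem-pore-domain (K2P) subunits set the resting potential, and calcium- or sodium-activated subunits respond to ions inside the cell. Auxiliary subunits such as the MinK-related Kcne proteins attach to a pore and alter its gating, trafficking or both. In mural cells, potassium efflux lowers calcium entry and relaxes the vessel.

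Every FPKM (fragments per kilobase of a transcript, scaled to sequencing depth) and every q value comes from the authors' deposited table, where the libraries of a tissue are combined into 1 value. No replicate error and no depth can be read from it, and effects of the sort or the library preparation cannot be told apart from effects of the tooth. A gene is said to be called where the authors' q lies under 0.05. In bulk RNA, fewer cells of a type and less RNA per cell cannot be told apart.

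Potassium channel genes were low in both tissues. Only 30 of the 96 members reached 1 FPKM in either tissue (31.3%), against 54.5% of all rows, and 3 reached 10 FPKM (3.13%, against 23.3% of all rows). The median member stood at 0.401 FPKM in molar and 0.0908 FPKM in incisor, against 1.04 FPKM in molar and 0.708 FPKM in incisor for all rows. Summed over members, the level was 97.0 FPKM in molar and 71.6 FPKM in incisor, a log2 ratio of 0.44, against 0.60 for the sum of all rows. Of the members at 1 FPKM or more, 10 reached it in both tissues, 14 in molar alone and 6 in incisor alone.

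**Figure D1:**
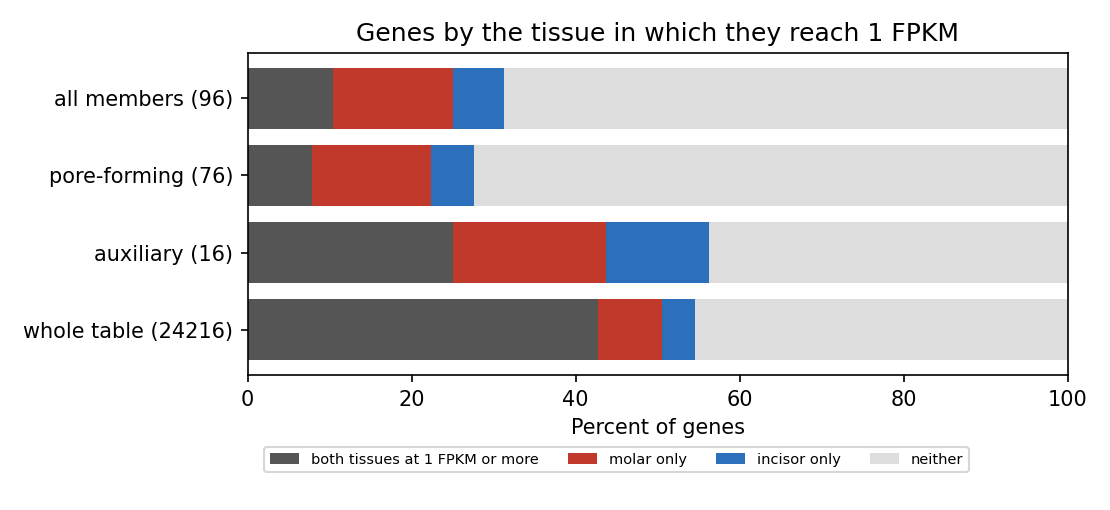
Percent of genes (x axis) that reached 1 FPKM in both tissues, in molar alone, in incisor alone or in neither, for all 96 members, the 76 pore-forming and 16 auxiliary members, and the 24216 rows of the whole table. Neither tissue reached 1 FPKM for 66 of the 96 members.

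Of the 83 members tested in the authors' deposited table, 10 were called with the higher value in molar, which is 12.05%, against a background of 11.9% of all tested rows. None was called with the higher value in incisor, against a background of 4.28%. At an unadjusted p under 0.05 the counts were 18 for molar (background 17.9%) and 2 for incisor (background 9.06%). At q under 0.01 they were 7 for molar (background 8.8%) and 0 for incisor (background 2.27%), and by the authors' own mark of significance 12 for molar (background 12.7%) and 0 for incisor (background 4.69%). The share called higher in molar was thus near that of all genes. The median of log2((molar FPKM + 1) / (incisor FPKM + 1)) over the 30 members at 1 FPKM or more was 0.35, against 0.14 over all rows at that level. Members listed at 0 in incisor alone numbered 25 (26.0%, against 19.2% of all rows), 1 was listed at 0 in molar alone (1.04%, against 1.13%), and 3 were at 0 in both. A value of 0 in the table is not proof of absence.

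The 10 called members were mostly of low level. Olfactory, vomeronasal and taste receptor genes, 1469 in the table and a set first drawn up after values of these data had been seen, had a 99th percentile of 3.81 FPKM in molar and 0.137 FPKM in incisor. Only Kcne1l among the called members exceeded that molar value, and the molar values of the other called members, among them Kcnk13, Kcnt2, Kcnc1, Kcnj6, Kcnma1, Kcnc2, Kcna2 and Kcnv1, lay within it and are uncertain. Over all members, 4 of 96 exceeded the chemoreceptor level in molar (Kcne1l, Kcne3, Kcnj13 and Kcnj15) and 44 exceeded it in incisor. The level itself is far lower in incisor, so these counts do not compare the tissues. At the same cut-off of 1 FPKM, 24 members reached it in molar and 16 in incisor.

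**Figure D2:**
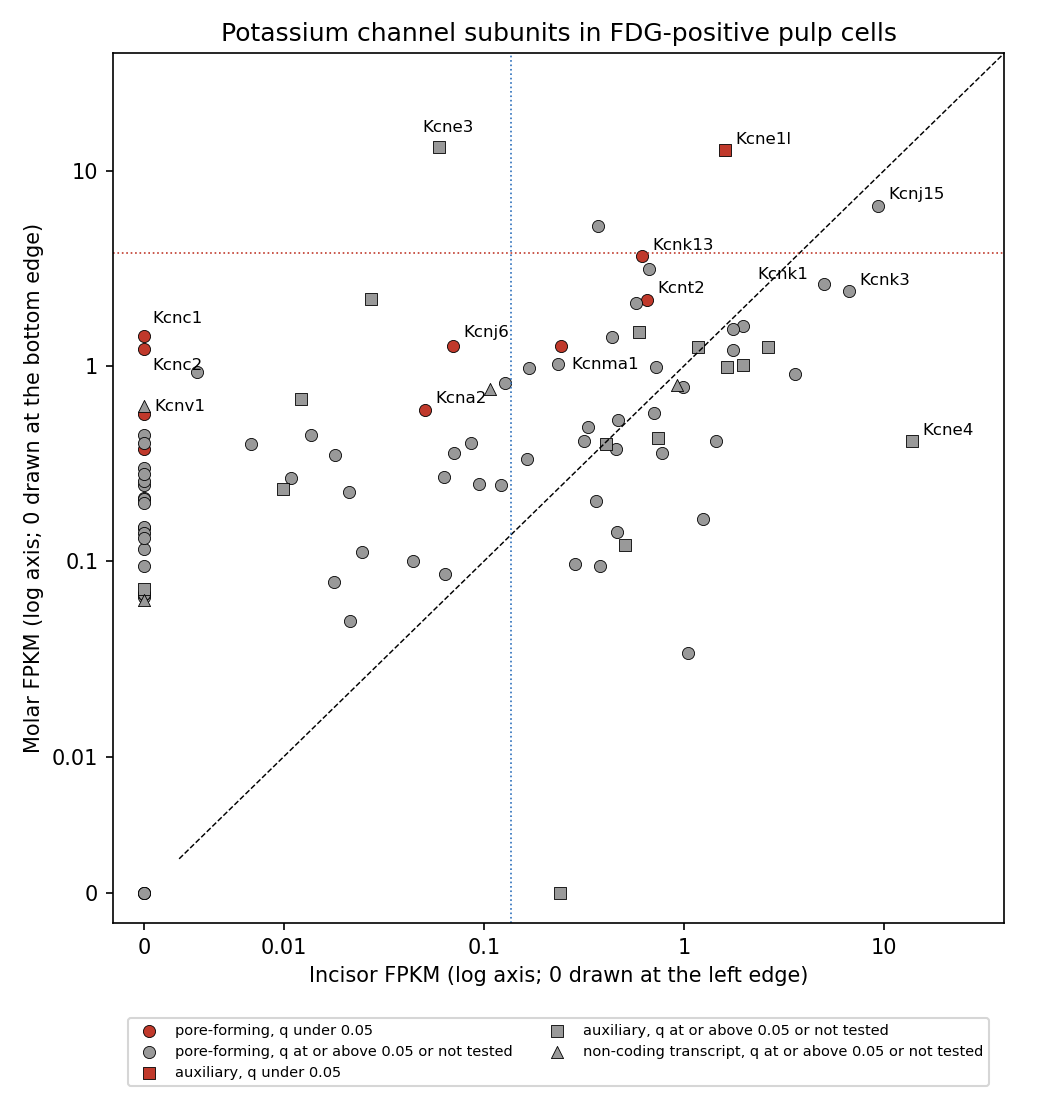
Molar FPKM (y, log axis) against incisor FPKM (x, log axis) for the 96 members, with 0 drawn at the edges, circles for pore-forming, squares for auxiliary and triangles for non-coding members, and red for q under 0.05. Dotted lines mark the 99th percentile of chemoreceptor genes, 3.81 FPKM in molar and 0.137 FPKM in incisor. All 10 red points lie above the dashed line of equal values, and only Kcne1l lies above the horizontal dotted line.

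The upstream sequences of the 3 called members with the highest molar level and a RefSeq entry (Kcne1l, Kcnk13 and Kcnt2) are shown with that of Kcne4, the member with the highest incisor level, so that called genes can be read beside a member with its higher value in incisor. Each line is the 250 bases before the annotated start, 5′ to 3′ on the gene's strand, from RefSeq on GRCm38.p6. Capitals mark GC boxes (GGGCGG, the usual Sp1 sequence) and E-boxes (CANNTG, the sequence of basic helix-loop-helix factors), on either strand. The windows are chrX:142306199-142306448 on the minus strand for Kcne1l, chr12:99964249-99964498 on the plus strand for Kcnk13, chr1:140245468-140245717 on the plus strand for Kcnt2 and chr1:78816661-78816910 on the plus strand for Kcne4.
Kcne1l: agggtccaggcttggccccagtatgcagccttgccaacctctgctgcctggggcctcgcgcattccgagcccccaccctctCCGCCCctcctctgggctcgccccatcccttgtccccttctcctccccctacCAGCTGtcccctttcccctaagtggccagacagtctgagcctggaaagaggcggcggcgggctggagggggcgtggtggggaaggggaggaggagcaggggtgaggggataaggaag
Kcnk13: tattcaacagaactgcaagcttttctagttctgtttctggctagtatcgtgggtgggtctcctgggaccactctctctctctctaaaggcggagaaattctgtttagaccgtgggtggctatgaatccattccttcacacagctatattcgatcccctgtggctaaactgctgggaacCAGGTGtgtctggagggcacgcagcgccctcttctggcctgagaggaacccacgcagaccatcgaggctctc
Kcnt2: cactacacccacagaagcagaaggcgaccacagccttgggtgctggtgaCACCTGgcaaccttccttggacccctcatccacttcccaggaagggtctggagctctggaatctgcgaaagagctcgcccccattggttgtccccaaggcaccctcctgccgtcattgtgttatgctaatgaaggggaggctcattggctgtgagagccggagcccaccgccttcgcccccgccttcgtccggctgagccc
Kcne4: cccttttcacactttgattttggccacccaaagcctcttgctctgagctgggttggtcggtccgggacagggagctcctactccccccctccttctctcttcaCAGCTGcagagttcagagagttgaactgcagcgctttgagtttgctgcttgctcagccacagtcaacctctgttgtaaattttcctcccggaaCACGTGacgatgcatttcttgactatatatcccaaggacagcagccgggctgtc

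Kcne1l held 1 GC box and 1 E-box in its window, Kcnk13 and Kcnt2 held 1 E-box each, and Kcne4 held 2 E-boxes. GC content was 68% for Kcne1l, 52.8% for Kcnk13, 61.6% for Kcnt2 and 53.2% for Kcne4. Promoter entries, which run from 250 bases before to 50 after the start, were found for 70 of the 96 members, 95 entries in all. A GC box was present in 48.4% of member entries, against 35.7% of all 32851 entries. The TATA box TATAAA was present in 5.26%, against 13.6%, and an E-box in 72.6%, against 72.3%. Member entries were also richer in GC, with a median of 58.3%, against 52.7% for all entries. The part of GC content in the GC box and TATA box shares was not tested. The CArG box, the binding sequence of serum response factor in smooth muscle genes, was present in none of the 95, against 1.63% of all entries. With so low a share over all entries, its absence from 95 is not read as a trait of the members. Among the 12 entries of called members, 6 held a GC box and none a TATA box or CArG box. These are matches of letters in a fixed window on both strands, not sites shown to be bound.

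Among auxiliary subunits, the MinK-related family held 3 of the 4 most abundant members, and these had unlike values in the tissues. Kcne1l, also named Kcne5, whose product dampens current through Kv7.1 when the proteins are made together, had 12.7 FPKM in molar, against 1.61 FPKM in incisor. It is a gene of 1 exon on chromosome X (142304753 to 142306198, mm10), no annotated exon of another gene overlaps it, and it was called 7.93-fold higher in molar with q = 0.000664 in the authors' deposited table. This q is the smallest in the table, so it does not rank Kcne1l among the called genes. Kcne3, which holds Kv7.1 open in epithelia (chromosome 7, 100176670 to 100184869), had 13.2 FPKM in molar, against 0.0595 FPKM in incisor, and was not called with q = 0.359 in the authors' deposited table. Kcne4, which reduces current through Kv1.3 and Kv7.1 (chromosome 1, 78816949 to 78820025), had 0.412 FPKM in molar, against 13.8 FPKM in incisor, and was not called either with q = 0.305 in that table. Kcne4 was the member with the highest incisor value, and Kcne3 the one with the highest molar value. Kcne2, a partner of Kv7.1 in stomach and choroid plexus, stood at 0.121 FPKM in molar and 0.510 FPKM in incisor, and Kcne1 was not tested.

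**Figure D3:**
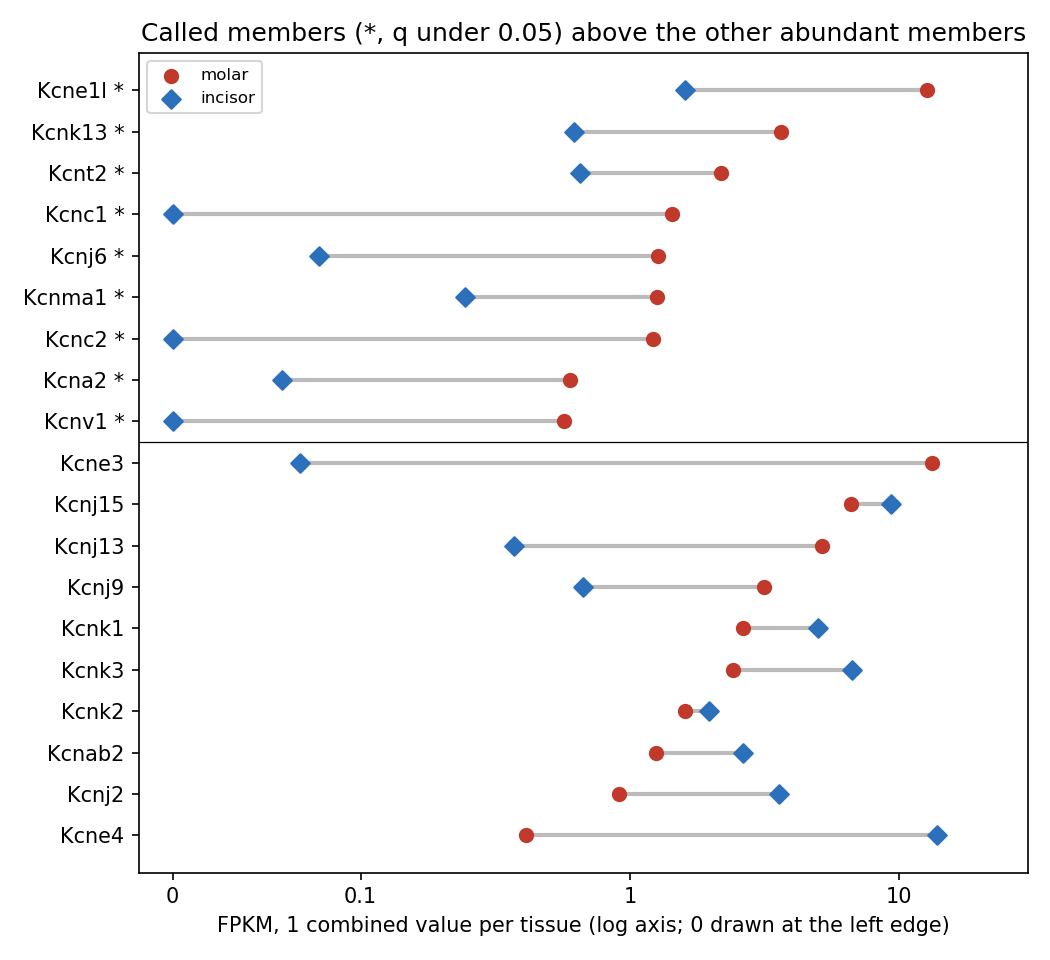
FPKM on a log axis, 1 combined value per tissue, for 9 of the called members (starred, above the line) and for the other members among the 12 most abundant, with molar as red circles and incisor as blue diamonds and 0 drawn at the left edge. Kcne3 and Kcne4 show wide gaps in opposite directions, 13.2 against 0.0595 FPKM and 0.412 against 13.8 FPKM (molar against incisor), and neither was called.

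The other auxiliary families had no called member. KChIP proteins, calcium sensors that bind Kv4 channels, all reached 1 FPKM in molar. Kcnip1 stood at 2.19 FPKM in molar and 0.0272 FPKM in incisor (q = 0.264 in the authors' deposited table), Kcnip2 at 1.49 FPKM in molar and 0.599 FPKM in incisor, and Kcnip4 at 1.25 FPKM in molar and 1.17 FPKM in incisor. Kcnip3, which also acts as a transcriptional repressor, stood at 1.01 FPKM in molar and 1.97 FPKM in incisor. Their Kv4 partners did not reach 1 FPKM in either tissue, with Kcnd1 at 0.784 FPKM in molar and 0.992 FPKM in incisor and Kcnd3 at 0.412 FPKM in molar and 0.317 FPKM in incisor. Of the Kv beta subunits, Kcnab2 stood at 1.25 FPKM in molar and 2.62 FPKM in incisor. Kcnmb1, the beta subunit that raises the calcium sensitivity of BK channels in smooth muscle, stood at 0.428 FPKM in molar and 0.746 FPKM in incisor (q = 0.480 in the authors' deposited table), in a row whose interval it shares with Kcnip1. Kcnmb4, its relative best known from neurons, stood at 0.991 FPKM in molar and 1.64 FPKM in incisor, and Kcnmb3 was the only member listed at 0 in molar alone, with 0.241 FPKM in incisor.

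Inward rectifiers included the most abundant member by mean level. Kcnj15, which encodes Kir4.2 (chromosome 16, 95257558 to 95300258), had 6.63 FPKM in molar, against 9.35 FPKM in incisor, and was not called (q = 0.344 in the authors' deposited table). The dental epithelial markers fixed for this work lay higher in incisor as well, with a summed level of 2633 FPKM in molar and 23488 FPKM in incisor and all 8 of 8 called, and their part in the level of Kcnj15 was not tested. Kcnj2, which encodes Kir2.1, the strong rectifier of capillary endothelium and muscle, stood at 0.910 FPKM in molar and 3.59 FPKM in incisor, and the authors' deposited table gives q = 0.0960. Kcnj2 was 1 of the 2 members with an unadjusted p under 0.05 and the higher value in incisor; the other was Kcnmb3. Kcnj6, which encodes the G-protein-gated Kir3.2 (chromosome 16, 94748683 to 94997696), had 1.27 FPKM in molar, against 0.0702 FPKM in incisor, and was called 18.1-fold higher in molar with q = 0.0474 in the authors' deposited table. Its family relative Kcnj9 (Kir3.3) stood at 3.14 FPKM in molar and 0.670 FPKM in incisor (q = 0.0837 in that table), while Kcnj3 and Kcnj5 were at 0.401 and 0.149 FPKM in molar and listed at 0 in incisor.

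Kcnj13, which encodes the Kir7.1 of retinal pigment epithelium and choroid plexus, stood at 5.19 FPKM in molar and 0.373 FPKM in incisor. Its q of 0.0595 in the authors' deposited table missed the threshold used here, though the authors marked the row as significant. The row spans Gigyf2, whose exons overlap Kcnj13 on the opposite strand, so reads of the pair may not be separable. Kcnj10, the Kir4.1 of glia, stood at 0.165 FPKM in molar and 1.25 FPKM in incisor, and Kcnj16, a partner of Kir4 subunits, at 0.0967 FPKM in molar and 0.285 FPKM in incisor. Kcnj11, the Kir6.2 pore of the ATP-closed channel of pancreatic beta cells, stood at 0.208 FPKM in molar and at 0 in incisor. In all, 1 of 14 inward rectifiers was called, higher in molar, which is 7.14% against the 11.9% of all tested rows.

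Tandem-pore-domain channels, which carry background potassium current, had a summed level of 16.5 FPKM in molar and 18.4 FPKM in incisor over 14 members. The 14 inward rectifiers summed to 20.1 FPKM in molar and 16.2 FPKM in incisor, and to 128 FPKM in molar and 32.2 FPKM in incisor with Kcnj8, which is not among the 96 and stood at 108 FPKM in molar and 16.0 FPKM in incisor. Kcnk13, which encodes THIK-1, the background channel of microglia (chromosome 12, 99964499 to 100062682), had 3.64 FPKM in molar, against 0.620 FPKM in incisor. It was called 5.88-fold higher in molar with q = 0.00840 in the authors' deposited table. Of the 8 macrophage markers, C1qa and Fcer1g were called higher in molar and Cx3cr1 higher in incisor, with a summed level of 8289 FPKM in molar and 5319 FPKM in incisor and no marker at 0, and their part in the value of Kcnk13 was not tested.

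The other tandem-pore genes at 1 FPKM or more were not called. Kcnk3 (TASK-1, closed by extracellular acid) stood at 2.42 FPKM in molar and 6.70 FPKM in incisor, and the authors' deposited table gives q = 0.201. Kcnk1 (TWIK-1) stood at 2.64 FPKM in molar and 4.995 FPKM in incisor. Kcnk2, the stretch-gated TREK-1, stood at 1.60 FPKM in molar and 1.97 FPKM in incisor, with q = 0.563 in that table. Kcnk5 (TASK-2) was at 1.55 FPKM in molar and 1.76 FPKM in incisor, and Kcnk6 (TWIK-2) at 1.21 FPKM in molar and 1.77 FPKM in incisor. The values of these 5 genes lay higher in incisor, and those of Kcnk7, at 2.10 FPKM in molar and 0.579 FPKM in incisor, lay higher in molar. Kcnk4 (TRAAK), a stretch-gated relative of Kcnk2, was not tested, at 0.0783 FPKM in molar and 0.0177 FPKM in incisor. Kcnk12, Kcnk15 and Kcnk16 were listed at 0 in both tissues.

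**Figure D4:**
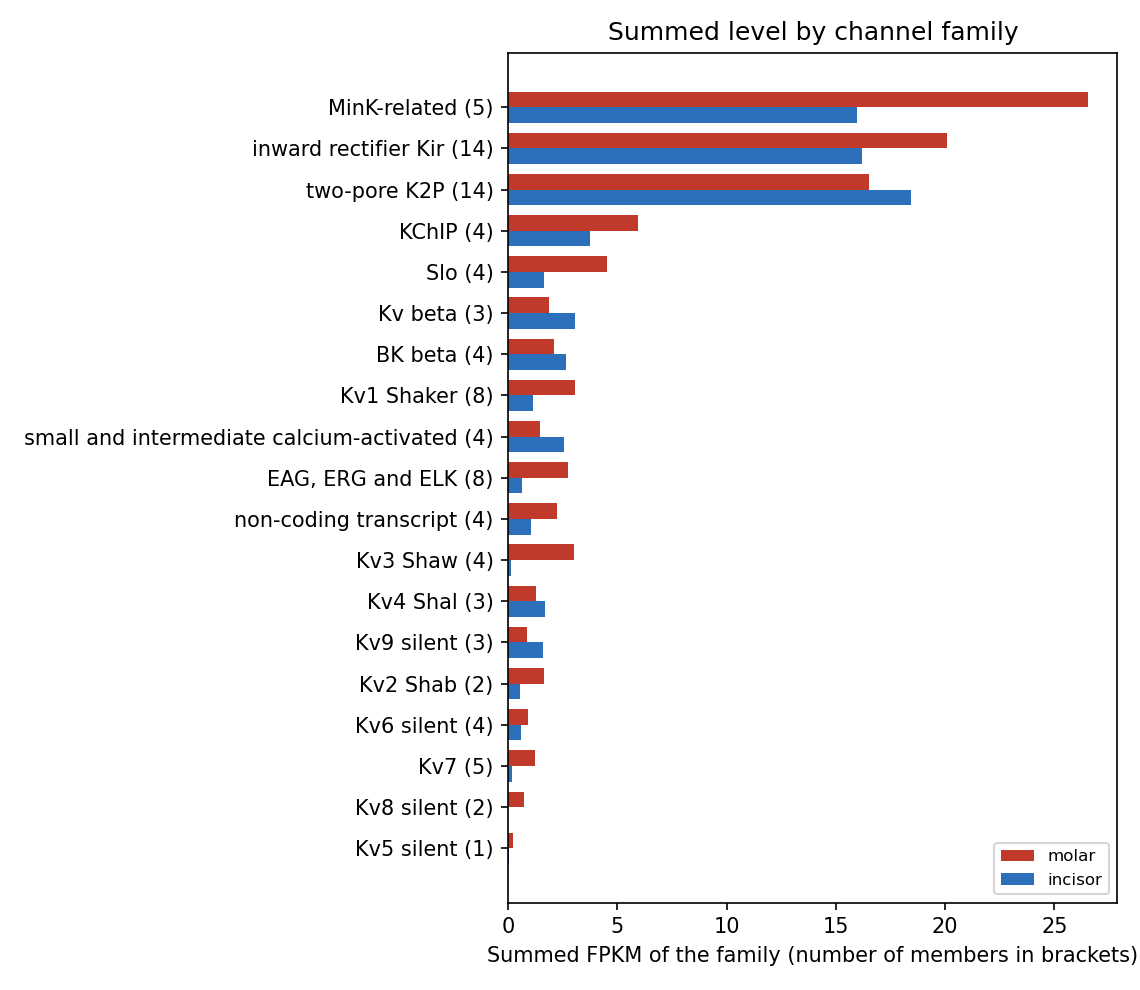
Summed FPKM (x axis) of each channel family in molar (red) and incisor (blue), with the number of members in brackets. Without Kcnj8, which would raise the inward rectifiers to 128 FPKM in molar and 32.2 FPKM in incisor, the longest molar bar is that of the MinK-related genes, with 26.6 FPKM in molar against 16.0 FPKM in incisor, and the longest incisor bar that of the tandem-pore family (K2P), with 16.5 FPKM in molar against 18.4 FPKM in incisor.

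Among calcium- and sodium-activated channels, both calls were of the Slo family. Kcnma1, the pore of the BK channel, which opens on calcium and depolarisation and relaxes vascular smooth muscle (chromosome 14, 23298694 to 24004205), had 1.26 FPKM in molar, against 0.243 FPKM in incisor. Kcnt2, the sodium-activated channel Slick (chromosome 1, 140246257 to 140656402), had 2.19 FPKM in molar, against 0.651 FPKM in incisor. It was called 3.36-fold higher in molar with q = 0.0332, and Kcnma1 5.18-fold higher with q = 0.0373, in the authors' deposited table. Antisense transcripts of unnamed function overlap exons of both genes, and whether reads were counted by strand is not given in the sources used here. Of the smooth muscle markers, Des, Myocd and Smtn were called higher in molar and Tagln higher in incisor. That list summed to 72.3 FPKM in molar and 242 FPKM in incisor, with Myocd at 0 in incisor, and its part in the value of Kcnma1 was not tested. Kcnn4, the intermediate-conductance channel of endothelium and immune cells, stood at 0.0338 FPKM in molar and 1.05 FPKM in incisor (q = 0.373 by the authors' deposited table), and Kcnn3 at 0.487 FPKM in molar and 0.331 FPKM in incisor.

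Voltage-gated subunits held 5 of the 10 calls, all at low level. Over pore-forming members of every kind, 9 of 65 tested were called higher in molar (13.8%, against 11.9% of all tested rows). No share was computed for voltage-gated subunits alone, so the 5 calls do not show a concentration there. Kcnc1 and Kcnc2, Kv3 channels that let neurons fire fast, stood at 1.43 and 1.21 FPKM in molar and both at 0 in incisor, and the authors' deposited table gives each q = 0.000664. Kcna2, a Kv1 channel of axons, had 0.597 FPKM in molar, against 0.0511 FPKM in incisor, with q = 0.00508 in that table. Kcnv1, a subunit that forms no channel alone and alters other Kv channels, stood at 0.571 FPKM in molar and at 0 in incisor, and the authors' deposited table gives q = 0.000664. These rows lie at chromosome 7, 46396468 to 46438704 for Kcnc1, chromosome 10, 112271123 to 112466304 for Kcnc2, chromosome 3, 107101567 to 107115005 for Kcna2 and chromosome 15, 45106284 to 45114934 for Kcnv1. No annotated exon of another gene overlaps Kcnc1, Kcnc2, Kcna2 or Kcnv1.

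Neuronal markers fixed for this work included 3 of 8 called higher in molar (Rbfox3, Elavl4 and Scn9a) and 0 called higher in incisor. Snap25 and Prph were at 0 in incisor, and the list summed to 38.1 FPKM in molar and 66.8 FPKM in incisor, most of it Tubb3. The part of neuronal RNA in the values of Kcnc1, Kcnc2, Kcna2 and Kcnv1 was not tested.

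Vascular Kv channels were low in both tissues and not called. Kcna5, the Kv1.5 of arterial smooth muscle, stood at 0.149 FPKM in molar and at 0 in incisor. Of the Kv7 channels that relax arteries, Kcnq1 was at 0.357 FPKM in molar and 0.0710 FPKM in incisor, and Kcnq5 at 0.351 FPKM in molar and 0.0180 FPKM in incisor. Kcna3, the Kv1.3 of lymphocytes and macrophages, stood at 0.359 FPKM in molar and 0.778 FPKM in incisor. Kcna1 lay closest to the threshold, at 0.975 FPKM in molar and 0.169 FPKM in incisor; the authors' deposited table gives q = 0.0507 and marks it as significant. Kcnh1, an EAG channel, stood at 1.02 FPKM in molar and 0.234 FPKM in incisor. Of the 8 genes of its family, 5 were listed at 0 in incisor alone (62.5%), against 26.0% of all members and 19.2% of all rows. The molar values of those 5 were at most 0.441 FPKM, within the chemoreceptor range. Kcnh3 and Kcnh6, which are among them, were not tested and stood at 0.0682 and 0.0681 FPKM in molar. Of the subunits that modify other Kv channels, Kcns3 stood at 0.413 FPKM in molar and 1.44 FPKM in incisor, Kcng1 at 0.141 FPKM in molar and 0.463 FPKM in incisor, and Kcnf1 at 0.227 FPKM in molar and 0.0212 FPKM in incisor. Among the non-coding transcripts, Kcnq1ot1, the imprinted antisense RNA of the Kcnq1 locus, had the highest value, at 0.797 FPKM in molar and 0.921 FPKM in incisor, in a row that shares its interval with Kcnq1.

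Potassium channel genes often lie in clusters, and neighbours did not share a direction throughout. Of 10 pairs of members whose intervals lie apart by up to 150 kb, 5 had their higher value in the same tissue, 5 did not (among them Kcnk5 with Kcnk16, which was at 0 in both), 2 included a called member and none had both called. Some genes stand in several pairs, and of all members 66 had the higher value in molar and 27 in incisor. The count of pairs is thus a description only. A further 6 pairs whose rows overlap or share an interval, such as Kcnip1 with Kcnmb1 and Kcnd3 with Kcnd3os, are not in that count. Kcnj10 starts 11947 bases after the end of Kcnj9 on chromosome 1, and Kcnj9 had its higher value in molar, Kcnj10 in incisor. Kcna3 and Kcna2 on chromosome 3 differed in the same way, with Kcna2 called higher in molar and Kcna3 not called at 0.359 FPKM in molar and 0.778 FPKM in incisor. Kcnj2 and Kcnj16 on chromosome 11 both had higher values in incisor. Exons of 32 of the 96 members overlap another annotated gene, among them 3 of the 10 called (Kcnj6, Kcnma1 and Kcnt2).

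Genes that work beside potassium channels were counted by list; over all tested rows the share called was 11.9% for molar as the higher tissue and 4.28% for incisor. Of the sodium pump genes, which build the potassium gradient, 2 of 13 tested were called, both higher in molar. Fxyd1, a small regulator of the pump, had 304 FPKM in molar, against 13.5 FPKM in incisor, and was called 22.6-fold higher in molar with q = 0.000664 in the authors' deposited table. The beta subunit Atp1b3 had 63.1 FPKM in molar, against 26.4 FPKM in incisor, with q = 0.0394 in that table. Among cation-chloride cotransporters, 1 of 6 was called higher in incisor, namely Slc12a7, which carries potassium out with chloride, with 2.77 FPKM in molar, against 9.03 FPKM in incisor and q = 0.0445 in the authors' deposited table. Abcc9, the sulfonylurea receptor of vascular Kir6 channels, stood at 2.40 FPKM in molar and 4.33 FPKM in incisor and was not called. The lysosomal potassium channel Tmem175 stood at 20.7 FPKM in molar and 23.5 FPKM in incisor, and none of the 4 intracellular channel genes was called. None of 5 tested non-Kcn partners of Kv4 and BK channels (highest Amigo1) and neither of 2 tested H,K-ATPase genes (highest Atp12a) was called.

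Other cation channel families were likewise low. Of 15 tested voltage-gated calcium channel genes, Cacna1e was the single one called, at 0.495 FPKM in molar and 0.0309 FPKM in incisor, and Cacnb3 was the highest, at 5.34 FPKM in molar and 3.52 FPKM in incisor. Of 11 tested sodium channel genes, Scn9a was the single one called, at 1.501 FPKM in molar and 0.260 FPKM in incisor, and Scn2b was the highest, at 4.23 FPKM in molar and 10.7 FPKM in incisor. Both calls were higher in molar, within the chemoreceptor range.

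The sorted cells held markers of several lineages. Pericyte markers were above 0 in both tissues for all 10 of 10. Calls went to molar for 2 and to incisor for 3 of them, with sums of 451 FPKM in molar and 692 FPKM in incisor. For 7 of the 8 endothelial markers the call was higher in molar, with sums of 239 FPKM in molar and 10.5 FPKM in incisor and Cldn5 at 0 in incisor. Schwann and glial markers summed to 69.7 FPKM in molar and 54.7 FPKM in incisor, with 2 of 7 tested called higher in molar. Erythroid markers summed to 203 FPKM in molar and 6.01 FPKM in incisor, with 4 of 5 tested called higher in molar. The part of these cells in any member's value was not tested.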

How the data were processed

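The deposited table holds 1 row per gene and 1 combined FPKM value per tissue, with a log2 fold change of molar over incisor, a test statistic (a score), a p-value and a q-value, per the file headers. Per the submitters' processing notes the build was mm10 and the tools were edgeR, HISAT2 and Trim Galore. Which tool wrote the table, with which scaling and annotation, is not given in the sources used here. Description labels tied the columns to tissues. Coordinates were made 1-based by adding 1 to each start. The authors' status column marked 83 members as tested and 13 as not tested. With no value per library, no SD and no test of samples was possible, so the authors' q under 0.05 was used, with direction from the FPKM values. Folds and the log2 values with a pseudocount of 1 were computed from the FPKM. Exons and overlaps came from GENCODE M21 (GRCm38), in which all 96 members were found, and upstream sequences from RefSeq. The functions for counts and medians were checked on simulated data. Computation used Python 3.11.15, pandas 2.3.3 and numpy 2.4.6.

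The members and lists were chosen with earlier results of these data known. Named members were every called one, the 12 with the highest mean FPKM, the highest of each family, and a list of channels known from mural, immune, glial and enamel cells, 45 in all. Kcnip2, Kcnip4, Kcne2, Kcnk7 and other low members beyond these were named after their values were seen. Of other lists, every called gene and the highest were named for ion transport, and markers were summed. Lrrc26 and Scn2a had no single-gene row and were not analysed here. Some named members and partner genes are not reported here.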

Additional observations from a re-analysis of the deposited data

How the results depend on the processing

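The count of 10 members called higher in molar was 7 at q under 0.01, 12 by the authors' mark, 7 with a minimum of 1 FPKM, and 9 without rows that share a locus, a setting added after seeing the data. It was 18 at an unadjusted p under 0.05 and 1 when members had to exceed the 99th percentile of chemoreceptor genes, and that one was Kcne1l. The count called higher in incisor, 0, was 2 at an unadjusted p under 0.05 and 0 under the other 7 settings. The median log2 fold of members, 0.35, was 0.64 with a pseudocount of 0.1, 0.11 with a pseudocount of 5, 0.12 with median centring, 0.033 with equal FPKM totals, 0.87 with a minimum of 5 FPKM (6 members) and 0.19 with no minimum, so its size rests on the setting. The median log2 fold of all genes above 0 in both tissues was 0.22. Among called members with a finite fold, the smallest log2 fold was 1.75, above that shift and above the 0.60 of the totals. Neither of these 2 shifts therefore turns a called direction. Over all called genes the smallest absolute log2 fold was 1.10, also above both shifts. The check could thus not have failed for these members and is no trait of theirs. For members not called, the log2 value with a pseudocount of 1 was used instead. It changed sign for Kcnd3 and Kcnn3 with median centring and with equal totals, and for Kcna5 and Kcnk4 with median centring. Median centring took a shift of folds without a pseudocount from these smaller values. Without a pseudocount, the log2 fold was 0.378 for Kcnd3, 0.560 for Kcnn3 and 2.14 for Kcnk4, and Kcna5 was at 0 in incisor. The median shift of 0.22 thus turns none of these genes. The 0.60 of the totals is larger than the folds of Kcnd3 and Kcnn3. Calls under another scaling, and leaving out a library, could not be run from 1 combined value per tissue. No paired analysis was possible because the columns carry no replicate numbers.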

Other observations

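Cyclic nucleotide-gated and HCN channels, relatives of potassium channels, had 2 of 8 tested genes called in the authors' deposited table, each higher in molar, where 11.9% of all tested rows were called higher. They were Cnga2 and Cngb1, subunits of the channel of smell transduction, at 1.74 and 1.84 FPKM in molar, and both were listed at 0 in incisor. A list of 10 genes known from olfactory sensory neurons was drawn up after these values were seen and includes both. In it 3 of 10 were called higher in molar, where the share over all tested rows was 11.9%. The calls of Cnga2 and Cngb1 were known beforehand, so the 3 of 10 cannot be read against that share. The third was Rtp2, at 0.934 FPKM in molar and listed at 0 in incisor. Omp, the olfactory marker protein, stood at 1.57 FPKM in molar and 0.0520 FPKM in incisor and was not called, and Gnal stood at 2.61 FPKM in molar and 3.15 FPKM in incisor. These levels are of the size of the called voltage-gated potassium channels in molar, and the part of such RNA in them was not tested.

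Several members with large gaps between tissues were not called. Kcnk10 stood at 0.926 FPKM in molar and 0.00367 FPKM in incisor. In all, 20 tested members had a value over 4-fold higher in molar and 5 a value over 4-fold higher in incisor without a call, counting only those above 0 in both. The same share over all tested rows was not computed, so these 2 counts are not read as a trait of the members. A different measure is which tissue had the higher value, whatever the gap. By it, 66 members lay higher in molar and 27 in incisor, and 13771 and 7514 of all rows. A lean to molar by that measure was thus also present over all rows. The q of 0.252 shared by 14 members stood in 3232 rows of the authors' deposited table. How the authors' test weighed the libraries is not given in the sources used here.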
